A study of Mus musculus with 6 samples.

Results

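Mouse embryonic stem cells carrying the HB9::GFP reporter, in which green fluorescent protein marks motor neurons, were differentiated toward motor neurons, and embryoid bodies, the floating cell aggregates in which this takes place, were taken at day 6 for droplet single-cell RNA sequencing. The comparison described here is between the 2 libraries labelled lncMN2 KO (genotype lncMN2-/-) and the 2 labelled wild type (WT), over all cells, 4 of the 6 libraries of the series; the other 2, labelled lncMN2 DeltaSP (genotype lncMN2_SP-/-), were part of the same fit and are given beside some results. DeltaSP and KO cells were made with CRISPR/Cas9, every library came from 1 clone, and all share the reporter background; what each edit removed is not stated in the labels used here. Cells were kept with at least 1000 genes detected and at most 10% of UMIs (unique molecular identifiers, each standing for 1 captured RNA molecule) from mitochondrial genes. This left 10340 of 16571 barcodes in the KO and WT libraries, and 16225 of 24215 in all 6. The filter was uneven. It kept 4499 of 9345 barcodes in WT 1, 1612 of 2161 in WT 2, 2129 of 2498 in KO 1 and 2100 of 2567 in KO 2. These held 84.0% of the UMIs of WT 1 and 97.1%, 97.4% and 98.0% of those of WT 2, KO 1 and KO 2.

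Motor neurons of the ventral spinal cord arise from dividing progenitors that make the transcription factor Olig2. These cells leave the cell cycle, pass through a short state driven by proneural factors such as Neurog2, and then switch on Isl1, Lhx3 and Mnx1 (the Hb9 of the reporter), the choline acetyltransferase gene Chat and the genes of axons and synapses. In an embryoid body, progenitors, newborn neurons and maturing neurons are all present together, and Hox genes mark their position along the body axis.

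The lncMN2 locus (mm10, chrX:105348282-105391776, transcribed from the minus strand) gives rise to the long RNA annotated as 5330434G04Rik, with the Ensembl identifier ENSMUSG00000087620, which has no known protein product. MicroRNA genes lie on the same strand: Mir325 inside the annotated span of the long RNA, and Mir384 beyond its annotated 3' end. Their mature microRNAs are printed because an edit of the locus can reach them and because their seeds define which transcripts they may bind. The sequences are from RefSeq (GRCm38.p6), 5' to 3', with the seed (bases 2 to 8) in capitals; these 4 strands have 4 different seeds.
mmu-miR-325-3p (chrX:105379105-105379126, minus strand): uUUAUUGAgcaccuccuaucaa
mmu-miR-325-5p (chrX:105379142-105379164, minus strand): cCUAGUAGgugcucaguaagugu
mmu-miR-384-3p (chrX:105344292-105344313, minus strand): aUUCCUAGaaauuguucacaau
mmu-miR-384-5p (chrX:105344332-105344354, minus strand): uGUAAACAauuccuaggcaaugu

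The long RNA was measured first, since it checks the labels. Levels are given as CPM, a gene's UMIs scaled to a common library total with TMM factors (trimmed mean of M values), and pairs of values are always in the order clone 1, clone 2; where 2 pairs are set against each other, the first is WT and the second KO. In WT the transcript stood at 37.4 and 34.8 CPM and in KO at 0.124 and 0.17 CPM, the latter from 4 and 6 UMIs. Both KO libraries lay far below both WT libraries, with a log2 fold change (KO minus WT, ± its standard error) of -7.89 ± 0.23, adjusted p = 3.14e-05. In DeltaSP the level was 22.4 and 23.2 CPM, between the other genotypes. The microRNAs themselves are not captured by this assay. Genes with the 7-base match of a seed in their annotated 3' UTR showed medians of 0.00 (miR-384-3p, 1623 genes), -0.03 (miR-384-5p, 2238 genes), -0.02 (miR-325-3p, 1949 genes) and -0.05 (miR-325-5p, 600 genes), against 0.03 to 0.04 in genes without the match. Of these genes 2.34%, 2.06%, 2.72% and 1.83% rose and 3.45%, 3.98%, 4.26% and 5.0% fell, against 3.01% to 3.15% and 4.27% to 4.42% without the match. A seed match is a description of the letters only, and no group of site-bearing genes stood more than 0.09 below its complement.

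Across the transcriptome, 14900 genes had enough UMIs to be tested; 419 of them (2.81%) rose in KO and 702 (4.71%) fell at an adjusted p under 0.05 in edgeR's quasi-likelihood test with Benjamini-Hochberg adjustment, which stands behind every log2 fold change, SE and adjusted p below. Both KO libraries lay above both WT libraries for 30.1% of tested genes and below them for 29.3%. At an unadjusted p under 0.05 in edgeR, 2045 of the 14900 genes were higher and 2389 lower. DESeq2's Wald test called 966 of them higher and 1416 lower at an adjusted p under 0.05. These shares and counts are the background against which the counts of each gene group should be read. Cells of WT 1 were the shallowest, at a median of 4157 UMIs, where WT 2, KO 1 and KO 2 had 12192 to 15112; kept UMIs ran from 20318500 (WT 1) to 31458631 (KO 2) among these 4 libraries, and libraries shared at most 6 cell barcodes. Most calls were lost without WT 1 (1 gene rose and 12 fell), KO 1 (15 and 15) or KO 2 (2 and 2), and more were made without WT 2 (1433 and 1554). Cdkn1c, Cd2 and 5330434G04Rik were the only genes that passed under every alternative computed, and the groups below are described by levels, medians and directions as well as by calls. In sums over all cells, fewer cells of a type and less RNA of a gene per cell cannot be told apart.

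**Figure D1:**
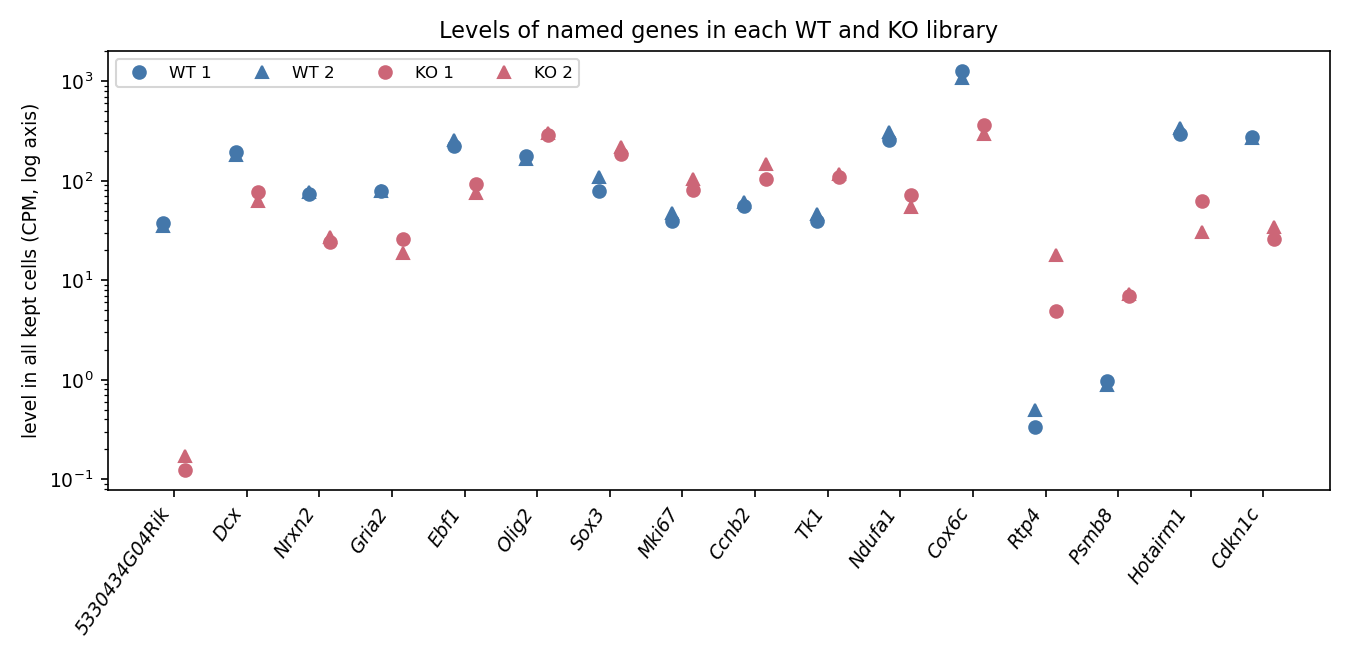
Level of 16 named genes in each WT (blue) and KO (red) library, in CPM on a log axis; circles are clone 1 and triangles clone 2. The pairs of WT and KO points are separate for all 16 genes, from the edited transcript at the left to the cell cycle inhibitor gene Cdkn1c at the right.

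To see how many cells carried neuronal or dividing-cell RNA, each kept cell was thinned to 3000 UMIs and counted as above a cut when at least 10 of them came from a list: 20 genes of the neuronal cytoskeleton and synapse, 25 genes of S phase, or 28 genes of G2 and M phase. Cells above the neuronal cut made up 53.7% and 46.7% of WT cells and 31.5% and 30.3% of KO cells, a difference of -19.3 percentage points. Cells above the S phase cut made up 14.2% and 21.2% in WT and 40.8% and 45.6% in KO, a difference of 25.5 points. For G2 and M phase the shares were 22.8% and 24.0% in WT against 42.8% and 45.7% in KO, a difference of 20.8 points. KO thus had fewer cells with high neuronal RNA and more with high cell cycle RNA in both clones, while DeltaSP stood at 41.8% and 30.7% for the neuronal list, the first between the genotypes and the second at the KO level.

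Cells below the neuronal cut were also taken on their own. In them the S phase share was 26.6% and 37.5% in WT and 56.1% and 59.9% in KO, and the G2 and M share 41.1% and 39.8% in WT and 56.1% and 58.4% in KO. The libraries did not overlap in any of these 5 shares, but with 2 libraries against 2 the two-sided exact permutation test gives p = 0.333, the smallest it can reach. These are ranges of a summed count and not cell types or calls of a cycle phase: 9.79% to 14.6% of cells lay within 2 UMIs of the neuronal cut, 14.0% to 23.5% of the S phase cut and 10.1% to 17.2% of the G2 and M cut in these 4 libraries. Thinning left out 936 WT 1 cells and 56 to 102 of each other library.

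**Figure D2:**
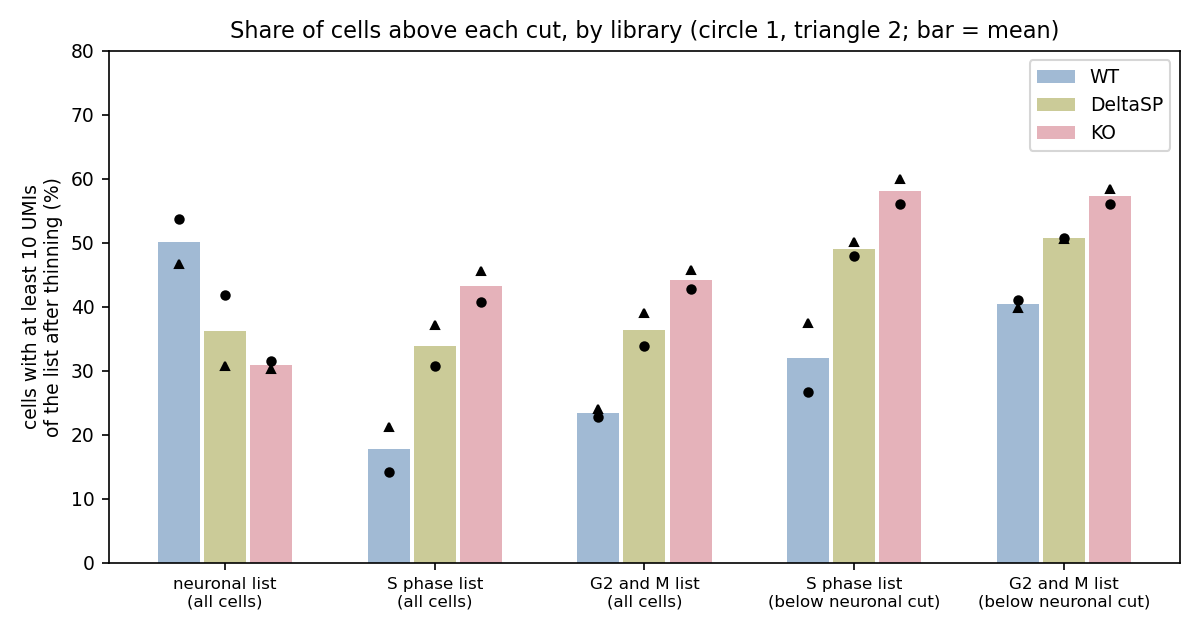
Share of cells (%) with at least 10 UMIs of a list after thinning to 3000 UMIs, for WT (blue), DeltaSP (olive) and KO (red). Bars are the mean of 2 libraries, starting at 0, and black points are the libraries (circle clone 1, triangle clone 2); the KO bar is lowest for the neuronal list, where DeltaSP 2 lies between the KO libraries, and highest for both cell cycle lists.

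Genes of neuronal structure and function were lower in KO across nearly every category examined. Of 212 tested genes in 13 lists, 45 fell and 1 rose, with a median log2 fold change of -0.66, against 0.00 over all tested genes. Both KO libraries lay below both WT libraries for 147 of them and above for 13. In the cells below the neuronal cut, with the genes of the cut left out, the median was -0.34 over 178 genes, of which 3 fell; in those cells 0.109% of 13792 tested genes rose and 1.16% fell. The median stayed between -0.44 and -0.72 when any 1 library was left out, while the number that fell went to 0 without WT 1, KO 1 or KO 2.

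The cytoskeleton of the growing axon was among the categories with most falls. Dcx (doublecortin), which stabilises microtubules in migrating young neurons, stood at 195 and 183 CPM in WT and 77.1 and 62 in KO (a change of -1.44 ± 0.20, adjusted p = 0.0258). Of the list of microtubule-associated and stathmin proteins 8 of 20 fell. Among them were Mapt, the axonal protein tau (-1.21), and Stmn3, a stathmin that binds free tubulin (-1.33). The alpha-tubulin Tuba1a went from 2842 and 1946 to 673 and 753 CPM (-1.75 ± 0.32, adjusted p = 0.032), whereas Tubb3, the neuronal beta-tubulin, had 1542 and 1959.6 against 1291 and 1075 CPM and did not pass (-0.57 ± 0.23, adjusted p = 0.147). The 1 neuronal-list gene that rose, Tubg1 (0.78 ± 0.13, adjusted p = 0.0306), encodes the gamma-tubulin of microtubule-organising centres and lies on chromosome 11. Of 7 intermediate filament genes 0 passed in edgeR (4 were lower at an unadjusted p under 0.05, and 4 fell in DESeq2), with a median of -0.63 and the neurofilament gene Nefl at -0.73. Of the transport motors, 5 of 16 fell, including Kif5c (-1.03) and Kif1a (-1.27), kinesins that carry cargo and synaptic vesicle precursors along axons.

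Synaptic genes showed the same direction on both sides of the synapse. Of 22 genes of synaptic vesicles and release 6 fell, with a median of -0.90. The calcium sensor of fast release, Syt1, had 25.4 and 22 CPM in WT and 9.49 and 6.93 in KO (a change of -1.53 ± 0.24, adjusted p = 0.0271), and Rab3c, a vesicle-bound small GTPase, 44.3 and 35.8 against 13.6 and 14 CPM (-1.54 ± 0.25, adjusted p = 0.0288). Of 11 secretory granule genes, which package neuropeptides, 5 fell: Chgb (-1.0), Scg2 (-1.24), Pcsk1n (-1.63), Pcsk2 (-1.39) and Resp18 (-1.86). Of 20 transmitter receptor genes 4 fell, the glutamate receptor subunits Gria2, Gria4 and Grin2b and the glycine receptor subunit Glra2. Gria2 stood at 79.8 and 78.6 CPM in WT against 26 and 18.8 in KO (a change of -1.82 ± 0.32, adjusted p = 0.0311), and the much scarcer Grin2b at 7.02 and 4.6 against 0.591 and 0.511 (-3.38 ± 0.43, adjusted p = 0.022). Neither pair overlapped. Of 23 voltage-gated channel genes 2 fell, among them Cacna1b, the N-type calcium channel of nerve endings (-1.07).

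Adhesion molecules and neuronal regulators of RNA and chromatin were lower as well. Nrxn2, a presynaptic neurexin, went from 73.5 and 77.3 to 24 and 27.3 CPM (-1.55 ± 0.23, adjusted p = 0.0262). L1cam (-1.52), a molecule of axon bundles, and Cadm2 (-2.36) fell as well, and 4 of 25 adhesion genes fell in all. Of 27 axon guidance genes 1 passed, the ephrin receptor Epha5, which fell from 259 and 113 to 31.3 and 18.5 CPM (-2.90 ± 0.43, adjusted p = 0.0262). WT 1 and WT 2 themselves differed for this gene by more than the KO libraries did from each other. Ntng1, a membrane-anchored netrin, was among the 12 largest falls at a mean of 20 CPM or more, from 60.8 and 35.3 to 7.34 and 5.96 CPM (-2.85 ± 0.33, adjusted p = 0.0207). Of 18 neuronal RNA-binding proteins 6 fell, among them the splicing regulators Celf3 (-1.30) and Celf5 (-1.47). In the BAF chromatin remodelling complex, whose subunits are exchanged when progenitors become neurons, the neuronal subunits Actl6b (-1.27) and Dpf1 (-1.0) fell, and Smarcd1, listed with the progenitor subunits, fell too (-1.50).

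Levels within the cells above the neuronal cut are given for some genes of maturing neurons and of motor neuron identity. They are plain CPM over the UMIs of those cells, with no test. Gria2 stood at 126 and 137 CPM in such WT cells and 68.5 and 56 in such KO cells, and Epha5 at 334 and 156 against 62.2 and 42.2. Both were lower in KO without overlap, as were Dcx (307 and 341 against 226 and 207) and Nrxn2 (107 and 127 against 56.0 and 64.3). Nefl (2452 and 3790 against 3372 and 3223) and Chgb (66.7 and 93.4 against 71.2 and 71.1) overlapped. Structure genes were thus not uniformly lower in these cells. Of the identity genes, Isl1 had 409 and 553 CPM in WT and 568 and 528 in KO. Chat had 58.4 and 72.2 against 66.3 and 75.5, and both genes overlapped. Mnx1 (196 and 210.5 against 281 and 248) and Lhx3 (87.8 and 88.4 against 131 and 139) were higher in both KO libraries than in both WT libraries in these cells.

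Over all cells, transcription factors that specify motor neurons had a smaller median change than the genes of neuronal structure, a difference that was not tested. Of 24 motor neuron factors 2 fell and 1 rose, with a median of -0.17. These counts are close to the shares of all tested genes, 4.71% and 2.81%. Both KO libraries lay above both WT libraries for 4 factors and below for 11, against 30.1% and 29.3% of all tested genes. The falls named below are not all from this list. Mnx1 had 154 and 122 CPM in WT and 115 and 95.9 in KO (a change of -0.39 ± 0.20, adjusted p = 0.242), Isl1 296 and 320.5 against 241 and 209 (-0.45 ± 0.16, adjusted p = 0.111) and Lhx3 74.1 and 58.9 against 68.8 and 70.1 (0.06 ± 0.17, adjusted p = 0.837). None of these 3 passed; Isl1 and Mnx1 were lower in both KO libraries, and Lhx3 levels overlapped. Ebf1, a helix-loop-helix factor of early postmitotic neurons that lies on chromosome 11, did fall, from 222 and 256 to 92.6 and 75.1 CPM (-1.51 ± 0.18, adjusted p = 0.0207), and so did Myt1l, a repressor of non-neuronal programmes, by 1.68. The Lim-domain cofactor Lmo4 went from 115 and 67.8 to 35 and 36.4 CPM (-1.35 ± 0.23, adjusted p = 0.0307). Chat, the enzyme that makes acetylcholine, fell from 38.5 and 38.3 to 23.2 and 22.7 CPM (-0.74 ± 0.17, adjusted p = 0.0473), the 1 call among 7 cholinergic genes.

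Some factors of the progenitor state rose. Of 28 ventral progenitor factors 4 rose and 1 fell, with a median of 0.31. Olig2, which defines motor neuron progenitors, rose from 179 and 164 to 291 and 301 CPM (0.79 ± 0.14, adjusted p = 0.032), and its neighbour Olig1 from 44.9 and 67.3 to 103 and 112 CPM (0.94). Sox3, a factor that keeps neural progenitors undifferentiated, went from 78.3 and 109 to 187 and 217 CPM (1.11 ± 0.20, adjusted p = 0.032). Sox2, its close relative, had 100.5 and 147 against 161 and 222 CPM and did not pass (0.63 ± 0.23, adjusted p = 0.126). Id1, an inhibitor of proneural helix-loop-helix factors and a target of BMP signals, rose from 126 and 101 to 229 and 267 CPM (1.13 ± 0.21, adjusted p = 0.0325). The fall was Irx5 (-0.79). Neurog2, the proneural factor of committing motor neurons, had 185 and 95.4 CPM in WT and 182 and 176 in KO, with WT 1 above both KO libraries (0.35 ± 0.28, adjusted p = 0.437). Neurod4, which acts just after it, rose from 50.1 and 48.4 to 72.1 and 79.5 CPM (0.62 ± 0.13, adjusted p = 0.0376).

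Signalling pathways contributed single genes. Dll1, a Notch ligand of cells leaving the progenitor pool, rose from 30.0 and 37.5 to 59.2 and 59.1 CPM (0.81 ± 0.15, adjusted p = 0.032), the 1 call among 20 Notch genes. In the hedgehog list Gli3, the main repressor of the pathway, rose by 1.11 (1 of 14), and in the Wnt list the receptor Fzd2, which lies on chromosome 11, by 1.02 (1 of 24). In the FGF list Fgf9 fell by 1.08 (1 of 14). Single genes from lists of this size are close to the share of all genes called.

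Cell cycle genes rose as a broad group. Of 222 tested genes in 9 lists 58 rose and 0 fell in edgeR (3 were lower at an unadjusted p under 0.05, and 1 fell in DESeq2), with a median of 0.58; both KO libraries lay above both WT libraries for 185. Below the neuronal cut the median was 0.23, against 0.01 over all genes tested in those cells. There 1 cell cycle gene rose, where 0.109% of all 13792 tested genes did. The median kept its sign and lay between 0.50 and 0.66 when any 1 library was left out, while the count went to 0 without WT 1, KO 1 or KO 2 and to 104 without WT 2.

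By role, the rises spanned DNA replication and mitosis. Of 18 licensing genes 5 rose, among them Cdc6, which loads the replicative helicase onto origins, from 13 and 16.3 to 33.5 and 37.4 CPM (1.27 ± 0.19, adjusted p = 0.0262), and Gmnn, the inhibitor that prevents origins from firing again (0.81). Of 35 replisome genes 12 rose, among them Pcna, the sliding clamp of DNA polymerases, from 42.1 and 56.8 to 107 and 118 CPM (1.18 ± 0.19, adjusted p = 0.0291) and Pole2, a subunit of the leading-strand polymerase (1.19). Of 18 genes of deoxynucleotide synthesis 7 rose, led by the thymidine kinase Tk1, from 39 and 46.2 to 108 and 117 CPM (1.40 ± 0.16, adjusted p = 0.0207), and Rrm2, the ribonucleotide reductase subunit made in S phase, by 0.99. In mitosis, 9 of 28 cyclins, kinases and checkpoint genes, 13 of 28 spindle and cytokinesis genes and 4 of 30 kinetochore genes rose. Mki67, the proliferation antigen Ki-67, went from 39.5 and 47 to 81.3 and 104 CPM (1.10 ± 0.17, adjusted p = 0.0273), Ccnb2, a mitotic cyclin, from 55.4 and 61.6 to 105 and 147 CPM (1.11 ± 0.20, adjusted p = 0.0322), and the mitotic kinase Cdk1 rose by 0.88. Of 23 genes of homologous repair and the Fanconi pathway 6 rose, including Fancd2 (1.13).

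Other classes had fewer calls. Of 23 G1 and S cyclins, kinases and E2F factors 0 passed in edgeR in either direction, though 14 were higher at an unadjusted p under 0.05, 5 rose in DESeq2 and the median of 0.60 was close to that of all 9 lists. Of 19 condensin, cohesin and topoisomerase genes 2 rose, with a median of 0.18. Differences between these classes were not tested. Among 7 inhibitors of cyclin-dependent kinases 1 passed: Cdkn1c (p57), which holds cells out of the cycle and is imprinted, fell from 274 and 271 to 25.7 and 34.4 CPM (-3.18 ± 0.19, adjusted p = 0.00173), with DeltaSP at 34.9 and 29.8 CPM. In the cells below the neuronal cut its level was 122 and 152 CPM in WT and 15.4 and 15.5 in KO, a log2 fold change of -3.15 with adjusted p = 0.000988 in edgeR. Of 25 histone genes 2 fell, Hist1h2bk and Hist1h4c, both at 1.19 CPM or less in every library; most histone transcripts carry no poly(A) tail, which this assay needs.

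The 250 bases before the annotated start of Mki67 and Ccnb2 are shown because genes of G2 and M phase are textbook targets of a pair of promoter elements, the CCAAT box and the cell cycle homology region (TTTGAA). The sequences are from RefSeq (GRCm38.p6), 5' to 3' on the gene's strand, with every CCAAT and TTTGAA on either strand in capitals.
Mki67 (chr7:135716380-135716629, minus strand): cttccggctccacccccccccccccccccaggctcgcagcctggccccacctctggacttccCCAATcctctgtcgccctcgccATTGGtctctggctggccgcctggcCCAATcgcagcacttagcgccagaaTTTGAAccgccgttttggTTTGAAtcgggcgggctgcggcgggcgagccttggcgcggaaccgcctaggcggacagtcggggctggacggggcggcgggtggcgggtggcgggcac
Ccnb2 (chr9:70421555-70421804, minus strand): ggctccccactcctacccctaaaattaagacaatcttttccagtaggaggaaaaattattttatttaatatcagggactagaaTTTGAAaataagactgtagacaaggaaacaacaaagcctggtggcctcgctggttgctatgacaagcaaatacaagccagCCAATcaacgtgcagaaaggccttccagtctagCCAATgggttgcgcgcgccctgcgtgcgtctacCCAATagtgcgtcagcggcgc

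The Mki67 window held 3 CCAAT boxes and 2 TTTGAA matches, and the Ccnb2 window 3 and 1. CCAAT was found in 58.8% and TTTGAA in 27.5% of the 51 risen cell cycle genes with a promoter in the table, against 40.7% and 12.3% of the promoters of all tested genes and 37.5% and 18.3% of all promoters of that length in the table. The 185 tested cell cycle genes as a whole, risen or not, had nearly the same shares, 60.5% and 24.9%. The risen members stood close to their list in both motifs. Of the E2F site of S phase genes, TTTGG directly followed by CGC was found in 0 of the 51 risen genes, 5.41% of the 185 and 0.913% of promoters of tested genes, and TTCCC directly followed by GCC in 5.88%, 7.57% and 4.03%; in all promoters of that length the shares were 0.485% and 2.13%. A match is a description of the letters and not a bound site.

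Chromosome 11 stood apart from every other chromosome. Of its 1203 tested genes 174 rose (14.5%) and 20 fell, against 1.79% of the 13697 genes elsewhere that rose, and between 0.966% and 3.33% on any other single chromosome. It holds 8.07% of tested genes and 41.5% of the rises. The median log2 fold change of its genes was 0.37, with 75.3% of them above 0, while the medians of the other chromosomes lay between -0.12 and 0.01. Of the 12 largest rises among genes at 20 CPM or more, 9 were on it.

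The shift was alike in both clones, in both cell ranges and along the whole chromosome. UMIs of tested genes on chromosome 11 made up 10.7% and 10.3% of those of all tested genes in WT, 13.6% and 13.3% in KO and 13.5% and 13.8% in DeltaSP. Relative to the genes of other chromosomes, the median gene at 20 CPM or more stood at 1.30 and 1.31 times the WT mean in KO. The ratio was 1.34 and 1.34 in cells above the neuronal cut and 1.28 and 1.29 in cells below it. Split in order of position into 5 parts of 240 or 241 genes, the chromosome had medians of 0.33, 0.44, 0.40, 0.37 and 0.36. DeltaSP had a median of 0.37 against the same WT libraries. The libraries measure RNA only, and the number of copies of chromosome 11 was not measured. The number of rises on it went to 0 without WT 1 or KO 2, to 4 without KO 1 and to 287 without WT 2.

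**Figure D3:**
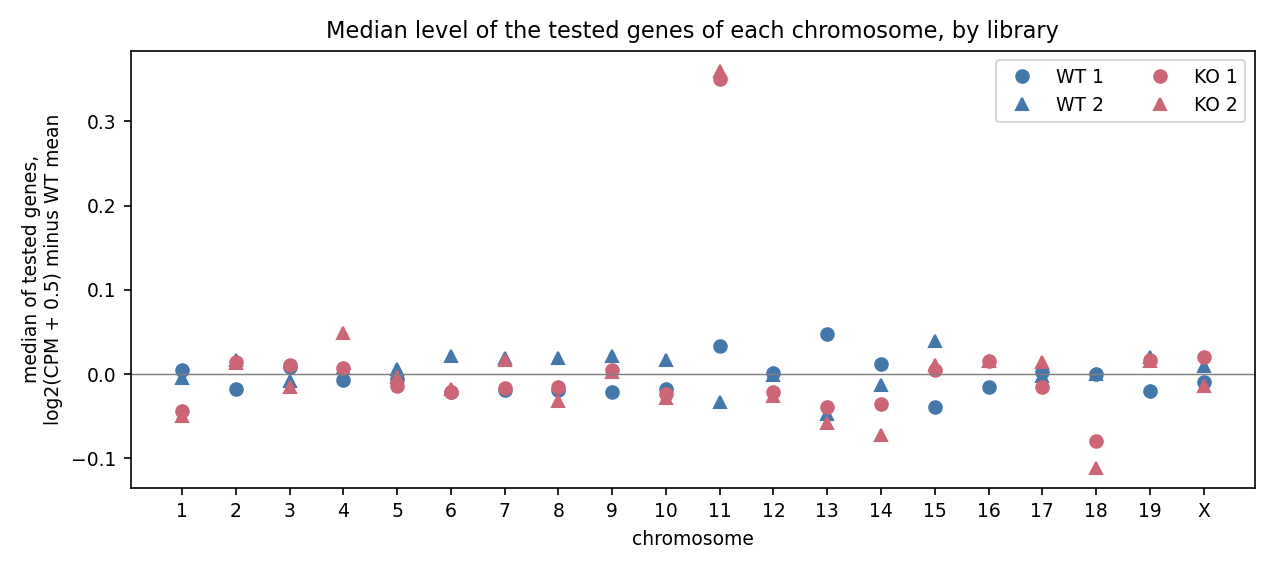
Median over the tested genes of each chromosome of log2(CPM + 0.5) minus the mean of the 2 WT libraries, for WT (blue) and KO (red); circles are clone 1 and triangles clone 2. On chromosome 11 both KO libraries lie near 0.35, at 0.350 and 0.360, and on no other chromosome does a KO library reach that level.

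This bears on the cell cycle genes, several of which lie on chromosome 11. Of the 15 tested there 10 rose, with a median of 1.0, including Cdc6, Tk1, the replication protein Rpa1 (44.1 and 57.4 to 116 and 123 CPM, 1.23), the mitotic kinase Aurkb (42 and 54.4 to 102 and 139 CPM, 1.32), Top2a, which untangles replicated DNA (0.94), and Spag5, a spindle protein (1.23). Of the 207 on other chromosomes 48 rose, which is 23.2% against 1.79% of all genes outside chromosome 11, with a median of 0.56. Pcna, Pole2, Rrm2, Mki67, Cdk1, Ccnb2, Aspm (0.89), Knstrn (0.84) and Fancd2 are among the 48. Leaving the chromosome 11 genes out of the lists behind the shares of cells, an alternative chosen after the data were seen, gave a difference of 24.6 points for S phase and 15.7 for G2 and M phase. Below the neuronal cut these were 25.3 and 12.2 points. The libraries stayed apart in each.

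**Figure D4:**
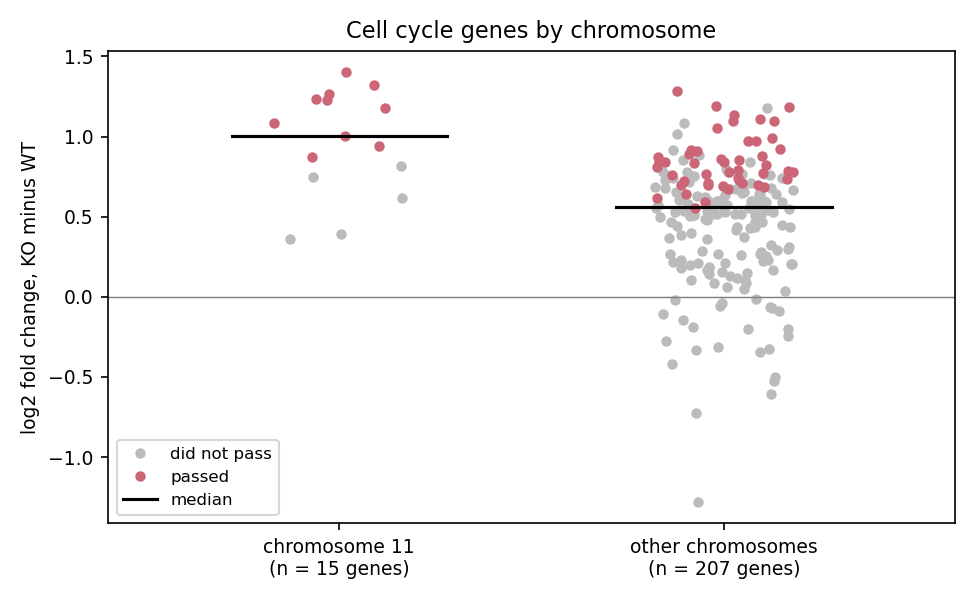
Log2 fold change (KO minus WT) of the 222 tested cell cycle genes, for the 15 on chromosome 11 and the 207 on other chromosomes; red points passed the test, grey points did not, horizontal spread is only for visibility, and black lines are medians (1.0 and 0.56). Most points of both groups lie above 0.

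Genes of oxidative phosphorylation encoded in the nucleus fell in KO. Of 78 tested genes 40 fell and 0 rose in edgeR (also 0 at an unadjusted p under 0.05 and 0 in DESeq2), with a median of -1.12. By complex these were 21 of 37 of complex I, 5 of 14 of complexes II and III with cytochrome c, 8 of 12 of complex IV and 6 of 15 of the ATP synthase; complexes II and III had a median of 0.05, unlike the others. Ndufa1, an accessory subunit of complex I, went from 259 and 307 to 72.5 and 54.4 CPM (-2.16 ± 0.29, adjusted p = 0.0256). Cox6c, a subunit of cytochrome oxidase, went from 1276 and 1082 to 361 and 296 CPM (-1.84 ± 0.29, adjusted p = 0.0267), and Atp5k, a small subunit of the ATP synthase, from 518 and 703 to 122 and 104 CPM (-2.43 ± 0.33, adjusted p = 0.0256). The KO libraries lay below both WT libraries in each. Of the 13 mitochondrially encoded genes 2 fell, mt-Nd3, from 569 and 755 to 69.2 and 91.1 CPM (-3.05 ± 0.27, adjusted p = 0.0139), and mt-Nd4l (-1.15); both encode subunits of complex I.

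Ribosomal protein genes moved in the same direction. Of 81 tested genes 29 fell and 0 rose in edgeR (1 was higher at an unadjusted p under 0.05, and 1 rose in DESeq2), with a median of -1.06. Their summed level was 219774 and 169590 CPM in WT and 116239 and 100712 in KO, with DeltaSP at 125085 and 188480. Rps29, a small-subunit protein, went from 2959 and 3149 to 538 and 471 CPM (-2.60 ± 0.39, adjusted p = 0.0262), and Rplp1, an acidic stalk protein of the large subunit, from 5086 and 2949 to 740.0 and 550.4 CPM (-2.64 ± 0.42, adjusted p = 0.0277). Many of these genes have near-identical processed copies in the genome, with which their reads may have been shared, so single values are uncertain. By contrast 0 of 30 proteasome genes passed in edgeR (1 was higher at an unadjusted p under 0.05, and 1 rose in DESeq2), with a median of -0.02, and 0 of 23 translation factors (2 higher and 3 lower unadjusted, 1 and 2 in DESeq2), with a median of 0.06.

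The medians were of like size where neuronal RNA was low: below the neuronal cut the median was -1.13 for the respiratory chain and -1.24 for ribosomal proteins. Both groups have short transcripts, with a median length of 601 and 629 bases against 1467 over all tested genes, and both were higher in WT 1 than in WT 2, for 63 of 78 and 68 of 81 genes. With the trend of level with transcript length removed from each library, 39 and 26 fell, with medians of -0.97 and -0.94. What part of the falls goes with transcript length or with WT 1 was not tested. DeltaSP 1 and DeltaSP 2 differed in summed ribosomal level by more than KO 1 and KO 2 did. Without WT 1, KO 1 or KO 2 the number of falls was 0 in both groups, with medians from -0.86 to -1.37.

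Glycolysis genes showed no matching change: of 22 only Slc2a1, the glucose transporter GLUT1, passed, at 208 and 217 against 363 and 517 CPM (1.05 ± 0.23, adjusted p = 0.0448), and the list median of 0.63 came with WT 2 above WT 1 for 21 of 22 genes.

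Interferon-induced genes and genes of MHC class I antigen presentation rose. Type I interferon acts through STAT and IRF factors on the interferon-stimulated response element, whose core is GAAA, any pair of bases and GAAA again, and induces antiviral effectors as well as the machinery that shows peptides on the cell surface. Promoters of Bst2 and Gbp7 are shown because both genes rose and both windows hold the element. The 250 bases before the annotated start are given 5' to 3' on the gene's strand (RefSeq, GRCm38.p6), with the element on either strand, and CCAAT, in capitals; in Bst2 a pair of overlapping matches forms 1 run.
Bst2 (chr8:71537473-71537722, minus strand): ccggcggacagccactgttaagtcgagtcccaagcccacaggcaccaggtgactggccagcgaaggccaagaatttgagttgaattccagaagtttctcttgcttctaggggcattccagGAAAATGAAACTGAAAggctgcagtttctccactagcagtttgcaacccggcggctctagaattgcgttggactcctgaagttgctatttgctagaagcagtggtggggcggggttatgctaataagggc
Gbp7 (chr3:142530086-142530335, plus strand): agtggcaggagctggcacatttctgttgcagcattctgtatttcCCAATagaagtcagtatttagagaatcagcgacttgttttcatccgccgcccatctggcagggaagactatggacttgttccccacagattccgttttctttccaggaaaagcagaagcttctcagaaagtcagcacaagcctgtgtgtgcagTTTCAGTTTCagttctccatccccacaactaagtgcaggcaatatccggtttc

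The element was found in 6 of the 11 risen interferon effectors with a promoter in the table (54.5%) and in 10 of the 20 tested ones (50%), against 3.04% of the promoters of all tested genes and 3.46% of all promoters of that length. Of 57 tested genes in the 3 lists 25 rose and 1 fell, with a median of 1.33, and both KO libraries lay above both WT libraries for 46. By role, 15 of 26 effectors, 3 of 17 genes of sensing and signalling and 7 of 14 genes of class I presentation rose; the 1 fall was Ifitm2, a membrane protein that restricts virus entry, from 201 and 169 to 113 and 71.4 CPM (-1.0). Ifitm2, Olig1 and Pcsk2 were picked for naming after their values were seen. Below the neuronal cut the median was 1.17 and 6 rose.

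The absolute levels were low and uneven between the KO clones. Bst2 (tetherin), which holds budding virus on the cell surface, had 7.08 and 7.17 CPM in WT and 18.8 and 38.2 in KO (a change of 2.0 ± 0.33, adjusted p = 0.0288), and Gbp7, a guanylate-binding protein, 1.08 and 0.613 against 3.48 and 5.59 CPM (2.46 ± 0.37, adjusted p = 0.0262). Rtp4, a strongly induced effector, went from 0.34 and 0.498 to 4.92 and 17.8 CPM (4.71 ± 0.74, adjusted p = 0.0269), and the level in KO 2 was more than 3 times that in KO 1. Psmb8, a catalytic subunit of the immunoproteasome, was even between clones, with 0.963 and 0.881 CPM in WT and 7.03 and 7.21 in KO (a change of 2.95 ± 0.29, adjusted p = 0.017). Irf1, a transcription factor of the response that lies on chromosome 11, went from 2.04 and 3.3 to 10.0 and 10.2 CPM (1.90 ± 0.26, adjusted p = 0.0258), the RNA sensors Ifih1 and Ddx58 rose by 2.68 and 1.62, and the class I gene H2-Q4, a member of a family of near-identical genes and so uncertain, by 1.37.

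DeltaSP was higher than KO for several effectors: Bst2 stood at 86 and 68.2 CPM there, Rtp4 at 44.6 and 30.6 and Gbp7 at 9.47 and 9.09. Psmb8 (7.44 and 11.1), Irf1 (8.75 and 10.6) and H2-Q4 (14.4 and 15.2) were at or near the KO level. The difference between KO and DeltaSP passed for none of these 6 (adjusted p from 0.844 to 0.995), and both genotypes were compared with the same WT libraries. Without KO 1 10 of the 57 genes rose, and without KO 2 or WT 1 0 did.

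**Figure D5:**
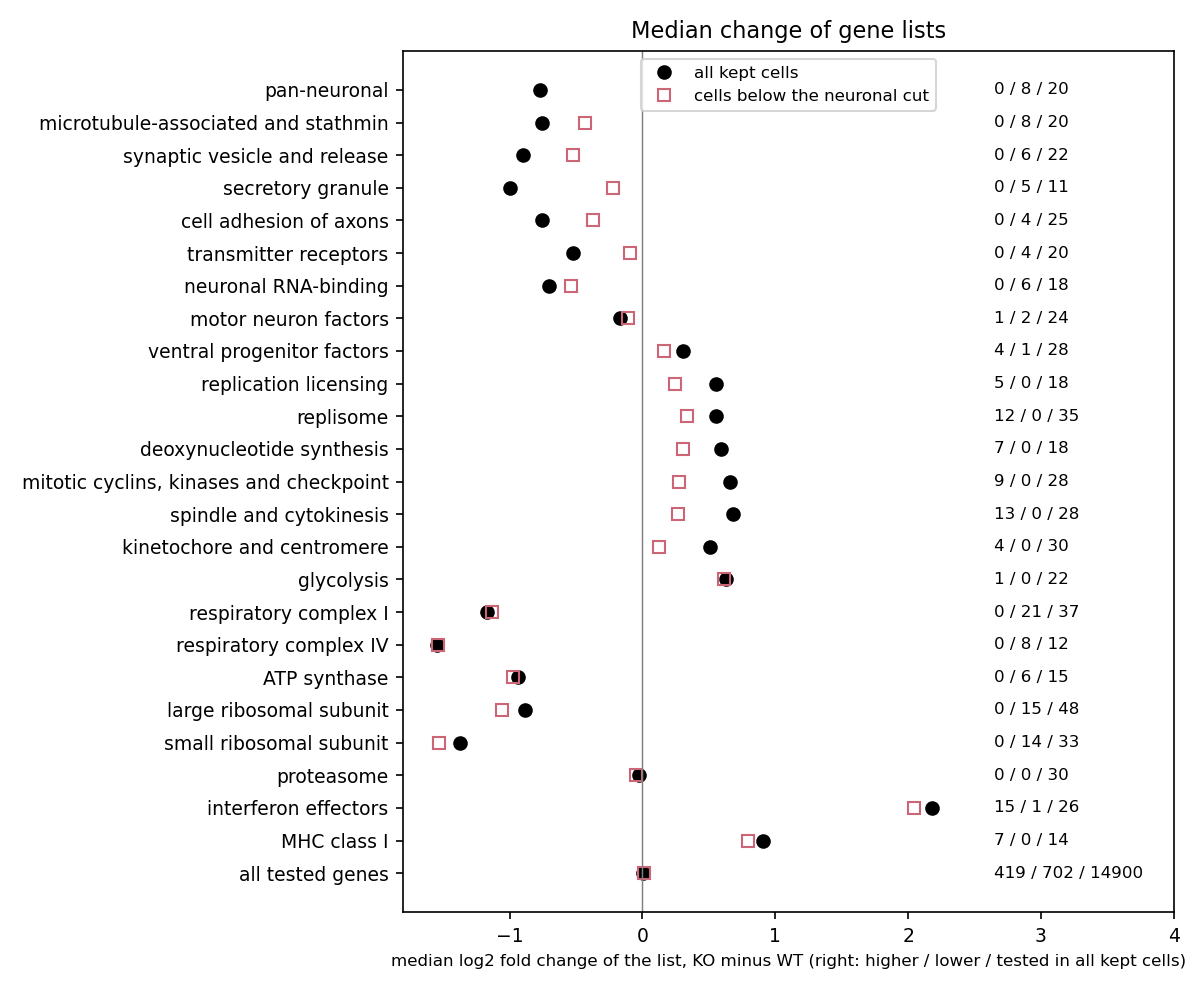
Median log2 fold change (KO minus WT) of 24 gene lists and of all tested genes, in all kept cells (black circles) and in cells below the neuronal cut (open red squares); the numbers at the right are genes higher, lower and tested in all kept cells. The plotted neuronal and cell cycle medians lie closer to 0 below the cut, while respiratory, ribosomal, interferon and MHC medians lie at about the same place; the pan-neuronal list has no red square because its genes define the cut.

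Some genes of axial position fell. Of 28 tested Hox cluster genes 4 fell, all others missing the threshold, with a median of -0.61. By cluster these were 2 of 7 of Hoxa (median -1.21), 2 of 11 of Hoxb (-0.23), and in edgeR 0 of 5 of Hoxc (-0.55; 2 lower and 0 higher at an unadjusted p under 0.05, 1 and 0 in DESeq2) and 0 of 5 of Hoxd (-0.77; 2 lower and 0 higher at an unadjusted p under 0.05, 0 and 0 in DESeq2). Hoxa5, of the cervical region, went from 477 and 359.6 to 129 and 62.8 CPM (-2.13 ± 0.46, adjusted p = 0.0419) and Hoxb9, of the thoracic region, from 28 and 18.7 to 6.72 and 3.72 CPM (-2.16 ± 0.33, adjusted p = 0.0262), although the Hoxb cluster lies on chromosome 11. The antisense transcripts Hotairm1, of the Hoxa cluster, and Hoxb5os fell from 293 and 339 to 62.9 and 30.5 (-2.76 ± 0.32, adjusted p = 0.0207) and from 168 and 105 to 15.5 and 5.31 CPM (-3.72 ± 0.62, adjusted p = 0.0293); where they overlap coding genes, reads of the 2 strands can be told apart only if strand was used in counting, which is not stated. KO 2 was the lower clone for all 4, and without WT 1 or KO 2 0 Hox genes fell, without KO 1 1 did. Among 11 cofactors and regulators of Hox genes 3 fell, including Tshz2, a zinc finger factor of trunk identity, from 133 and 106 to 23.5 and 17.9 CPM (-2.53 ± 0.19, adjusted p = 0.00654), and Meis2, a Hox partner, by 0.76. Tshz2 was also lower below the neuronal cut (-2.34, adjusted p = 0.0174).

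Of 29 imprinted genes 2 fell and 1 rose. Beside Cdkn1c, the growth regulator Grb10 fell from 46.8 and 65.3 to 9.8 and 6.33 CPM (-2.80 ± 0.29, adjusted p = 0.0202), against the direction of chromosome 11 on which it lies, and Mest rose from 442 and 648 to 1089 and 1008 CPM (0.94 ± 0.22, adjusted p = 0.0492). The immediate early genes Jun (-0.96), Junb (-1.35) and Atf3 (-0.93), which respond to stimuli and to handling of cells, fell, 3 of 17 in their list. Cd2, a surface protein of T lymphocytes, went from 0.283 and 0 to 66.1 and 67.3 CPM, with DeltaSP at 70.0 and 63.1 CPM; WT 1 held 5 UMIs of it and WT 2 held 0. The whole list of 13 endothelial and blood markers summed to 5.89 and 6.63 CPM in WT and 69.8 and 69.2 in KO, so that Cd2 made up nearly all of it in KO. In plain CPM, KO held Cd2 at 145 and 151 above the neuronal cut and at 29.4 and 38.2 below it. DeltaSP held it at 116 and 121 above the cut and at 36.7 and 28.4 below.

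Markers of other cell types mostly did not pass. Summed over 15 pluripotent and germ cell markers the level was 12.1 and 21.4 CPM in WT and 94.0 and 59.8 in KO, with DeltaSP at 24.9 and 104.5; of 9 tested 1 rose, Sall4 (1.39). Epcam, an epithelial adhesion molecule in the endoderm list, rose from 1.25 and 3.56 to 12.8 and 11.6 CPM (2.30 ± 0.54, adjusted p = 0.0479), and Apoa1, below 1 CPM throughout, fell. Mesoderm and mesenchyme markers summed to 66.0 and 105.5 CPM in WT and 79.5 and 54.7 in KO, endoderm markers to 62.5 and 88.6 against 94.3 and 89.0, neural crest markers to 22.8 and 45.3 against 44.5 and 56.3, and glial markers to 511.9 and 656.3 against 407.9 and 494.4. Their part in the results above was not tested.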

How the data were processed

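The authors deposited a matrix of raw counts (UMIs) for each of 6 libraries; Cell Ranger 4.0, Ensembl release 93 and mm10 are named in the labels and the submitters' processing notes. The chemistry is called V3.1 in one place and V3 in another. Here, counts were summed per library over barcodes that had 1000 or more genes and no more than 10% of UMIs from mitochondrial genes (20318500 to 47927845 UMIs), with no doublet caller. Sums were tested with edgeR 4.0.16 (R 4.3.3; quasi-likelihood test, TMM scaling, filterByExpr, Benjamini-Hochberg over all tested genes, threshold 0.05), with all 6 libraries in 1 fit; an SE is the size of the log2 fold change over the square root of F. Replicates are separate clones with 1 library each. The spread behind the p-values is pooled over all 6 libraries. In it, differences between clones and between library preparations cannot be told apart. A second fit used cells with fewer than 10 UMIs of the neuronal list after thinning to 3000, without the genes of that list.

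The gene lists and their members were chosen with earlier results of these data known. Named genes are up to 4 with the smallest p of each list, the 12 largest rises and 12 largest falls with non-overlapping libraries at 20 CPM or more, and 10 fixed genes. On simulated counts for this comparison (14666 genes), 65% of 2-fold and 96% of 4-fold changes were recovered, with 7 false calls. Changes were planted only in genes above a minimum mean of UMIs, so recovery among scarcer genes is not known. Each simulated gene's spread was set by the general trend with level, which can differ from its own. DESeq2 1.42.0 and the other alternatives are given in the closing section. Some results are not reported here.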

Additional observations from a re-analysis of the deposited data

How the results depend on the processing

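All alternatives use the same libraries, and those that leave an arm with 1 sample assume that it varies like the other groups. Without a filter on low counts 1557 genes were higher and 1833 lower, with 103 falls in the neuronal lists, 136 rises in the cell cycle lists (123 outside chromosome 11), 55 ribosomal falls, 39 interferon and MHC rises and 407 rises on chromosome 11. DESeq2's Wald test gave 966 and 1416, with 86, 106 (94 outside chromosome 11), 53 ribosomal falls and 320 on chromosome 11. With only the KO and WT libraries 211 genes were higher, 36 of the cell cycle lists (28 outside chromosome 11), 14 of interferon and MHC and 81 on chromosome 11. Leaving out each library in turn gave 1 to 1433 higher and 2 to 1554 lower genes, 0 to 49 neuronal falls, 0 to 104 cell cycle rises (0 to 95 outside chromosome 11), 0 to 50 respiratory and 0 to 46 ribosomal falls, 0 to 21 interferon and MHC rises and 0 to 287 rises on chromosome 11. Below the neuronal cut the ranges were 0 to 980 higher and 1 to 1205 lower; a cut of 5 gave 33 and 247, and a cut of 15 gave 26 higher. Without WT 2, Lhx3 and Neurog2, neither of which had passed, changed direction; over the libraries left out Lhx3 ran from -0.10 to 0.25 and Neurog2 from -0.049 to 0.92.

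Whether the replicate numbers pair the samples cannot be decided from these libraries. Deviations of same-numbered libraries from their genotype means correlated at 0.137 (WT and KO), -0.017 (WT and DeltaSP) and 0.027 (DeltaSP and KO). Each pair of genotypes gives only a single such value. With the number as a block 399 genes were higher and 615 lower, 17 of them ribosomal, and 3 higher and 39 lower below the neuronal cut. The differences in shares, in percentage points, were 16.1 for S phase at a cut of 15, 24.3 and 15.1 for G2 and M phase at cuts of 5 and 15, and, below the neuronal cut, 13.1 for G2 and M phase at a cut of 15, 18.9 with the looser cell filter and 18.8 without thinning. Lists without their chromosome 11 genes, chosen after seeing the data, gave 15.7 and, below the neuronal cut, 12.2 for G2 and M phase. WT 1 had the shallowest cells, which limits what can be seen of low genes there.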
